A study of Homo sapiens with 15 samples.

Results

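MicroRNAs (miRNAs) of HIF1α/HIF2α-KO cells kept under hypoxia were compared with those of control cells kept in normoxia. The comparison used 6 of the 15 libraries of the series, 3 in each group. All libraries came from U87-MG, an established human glioblastoma cell line, grown in medium with serum, and the cells were cultured for 24 h before collection. The HIF1α/HIF2α-KO cells carried a knock-out of both genes made with CRISPR/Cas9 delivered by a lentiviral vector and were kept at 1% O2. The control cells carried the genotype WT and were kept at 21% O2. Whether the knock-out cells were a clone or a pool, and whether the control cells carried an empty vector, was not stated in the sources used here. The other groups, each of 3 libraries, were control cells, HIF1α-KO cells and HIF2α-KO cells, all at 1% O2. Because oxygen and genotype both differed between the groups compared, a difference due to one cannot be told apart from a difference due to the other in this comparison alone. Small RNA was sequenced, so the messenger RNAs of HIF1α and HIF2α were not measured and the knock-out was not checked in these data.

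HIF1α and HIF2α are the oxygen-regulated subunits of the hypoxia-inducible factors. In normoxia they are hydroxylated and degraded, and under hypoxia they accumulate, pair with a stable partner and switch on genes that carry the short motif RCGTG. A miRNA is a short RNA cut from a hairpin precursor, and its bases 2 to 8, the seed, pair with messenger RNAs that are then repressed. miR-210-3p is the miRNA best known as a direct HIF target and lowers the level of mitochondrial iron-sulfur cluster and respiratory proteins. Cells without either HIF α subunit could lie at, above or below the normoxic level for such a miRNA, and this is the question that the comparison addresses.

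The mature sequences of the miRNAs that the results turn on are shown 5′ to 3′ with the seed in capitals, as RefSeq gives them for GRCh38.p14. The arms of the MIR210 hairpin are shown first because miR-210-3p had the lowest fold change of all calls. Both lie on the minus strand of chromosome 11, at chr11:568112-568133 (3p) and chr11:568150-568171 (5p), in an intron of the long non-coding gene MIR210HG. The other sequences are those of the calls that stood when any 1 of the 6 libraries was left out, and of let-7g-5p and miR-30a-5p, abundant calls that share a seed or a host transcript with one of them.
miR-210-3p: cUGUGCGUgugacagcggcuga
miR-210-5p: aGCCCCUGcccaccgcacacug
let-7i-5p: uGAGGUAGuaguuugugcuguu
let-7g-5p: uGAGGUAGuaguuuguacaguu
miR-449c-5p: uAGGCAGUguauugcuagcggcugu
miR-449a: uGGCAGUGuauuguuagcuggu
miR-615-3p: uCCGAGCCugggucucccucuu
miR-767-5p: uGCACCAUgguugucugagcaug
miR-105-5p: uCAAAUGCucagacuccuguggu
miR-382-3p: aAUCAUUCacggacaacacuu
miR-582-5p: uUACAGUUguucaaccaguuacu
miR-582-3p: uAACUGGUugaacaacugaacc
miR-30c-2-3p: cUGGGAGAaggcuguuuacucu
miR-30a-5p: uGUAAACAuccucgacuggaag

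let-7i-5p and let-7g-5p share the seed of all let-7 guide strands. miR-449a carries the seed of miR-34a-5p, and in miR-449c-5p the same letters start 1 base later because its 5′ end is 1 base longer. No other seed is shared among the sequences shown. All 36 called miRNAs had a RefSeq sequence, and among them only 2 seeds occurred in more than 1 call, that of let-7i-5p with let-7g-5p and that of miR-18a-5p with miR-18b-5p.

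The window from 250 bases before to 50 bases after the start of MIR210HG was read because both MIR210 arms moved together. It lies on the minus strand at chr11:568408-568707 (GRCh38.p14), and the letters ACGTG and GCGTG, the forms of the HIF motif, are in capitals.
MIR210HG: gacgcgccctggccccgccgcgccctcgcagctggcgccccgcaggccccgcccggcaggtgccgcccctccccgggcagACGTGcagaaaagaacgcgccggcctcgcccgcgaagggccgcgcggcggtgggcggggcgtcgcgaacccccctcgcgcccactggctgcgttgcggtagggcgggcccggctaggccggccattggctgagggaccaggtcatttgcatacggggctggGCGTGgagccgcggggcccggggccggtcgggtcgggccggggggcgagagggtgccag

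Searched on both strands, the window held ACGTG once, at position 81, and GCGTG once, at position 242. Of 35116 promoter windows of the same length, 21.4% held ACGTG, 36.5% held GCGTG and 48.4% held at least 1 of them, so the letters alone describe the window and do not set it apart.

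The libraries held 11662952 to 16258777 miRNA counts each, and 562 of the 1707 miRNAs in the files had enough counts to be tested. A count of 3, the limit set for detection, corresponds to 0.185 to 0.257 CPM, the count scaled to library size, in these 6 libraries. That limit, like the intervals given further on, covers counting error only. Where nothing says that the 3 libraries of a group came from separate cultures, the p-values measure the spread between these libraries, which may be technical.

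The 6 libraries also stood apart in base composition. The level of a miRNA relative to its mean over all 15 libraries rose with its G + C content in all 3 normoxic control libraries, by 0.0847 to 0.236 log2 units per 10% G + C. It fell with G + C in all 3 HIF1α/HIF2α-KO libraries, with slopes of -0.164 to -0.0957. The summed level of miR-190a-5p and miR-590-3p, a pair of AU-rich miRNAs, went in the same direction. Scaled to total counts without TMM, it was 0.321 to 0.984 CPM in the normoxic controls and 11.8 to 16 CPM in the HIF1α/HIF2α-KO libraries. Each of the other groups had libraries with slopes on both sides of 0. Within this comparison the base composition of the libraries and the groups therefore cannot be told apart, and no library of either group lay on the other group's side. The libraries of the other groups allowed fits with the slope, or with the miR-190a and miR-590 level as a set of libraries, as a covariate, both chosen after the data were seen. Their results are given with the calls below. The median log2 fold change fell from 0.31 in the quartile of miRNAs with the lowest G + C content to -0.25 in the quartile with the highest.

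**Figure D1:**
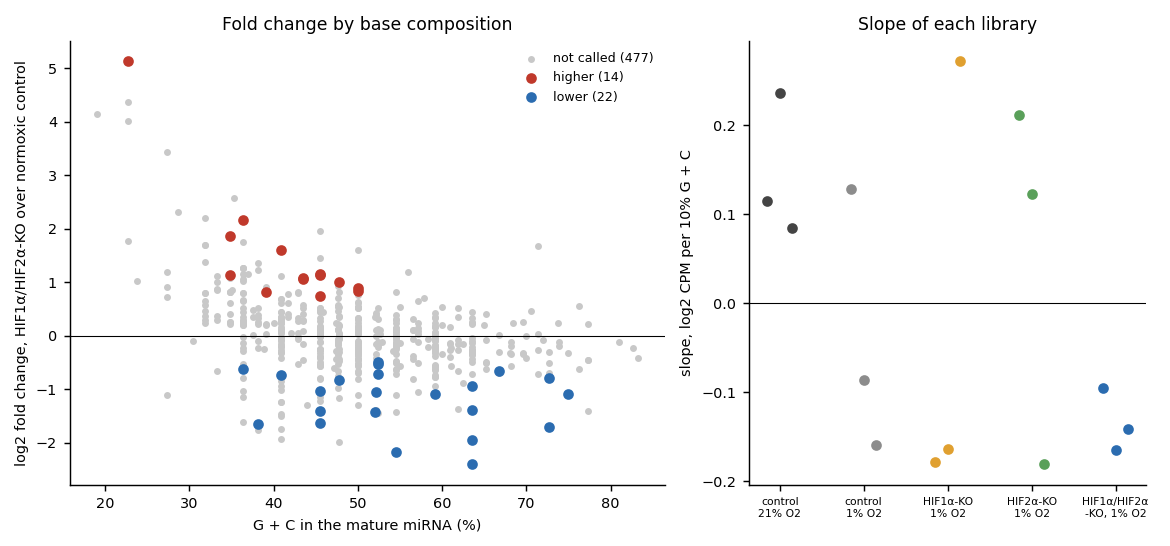
Left, log2 fold change of HIF1α/HIF2α-KO cells at 1% O2 over control cells at 21% O2 (y axis) against the G + C content of the mature miRNA in percent (x axis) for the 513 tested miRNAs with a sequence, coloured by call. Right, slope of each of the 15 libraries in log2 CPM per 10% G + C by group, 1 point per library: the normoxic controls lie between 0.0847 and 0.236 and the HIF1α/HIF2α-KO libraries between -0.164 and -0.0957.

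In HIF1α/HIF2α-KO cells, 14 miRNAs (2.49% of those tested) were higher and 22 (3.91%) were lower than in normoxic control cells at an adjusted p under 0.05 in edgeR's quasi-likelihood test. The lower group was led by both arms of miR-210, by 2 let-7 members, by miR-449c-5p and miR-449a, by miR-615-3p and by 5 miRNAs of the imprinted 14q32 cluster. The higher group held both arms of miR-582, miR-30a-5p and miR-30c-2-3p, miR-29b-3p, and miR-18a-5p, miR-18b-5p and miR-20a-5p of the miR-17-92 clusters. Of the 36 called miRNAs, 22 differed by at least 2-fold. Only 10 had a mean over 100 CPM in the 6 libraries and 17 lay under 10 CPM. The 3 values of one group did not overlap those of the other for any of the 36, against 39% of all miRNAs tested. An unadjusted p under 0.05 was found for 144 miRNAs.

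The median G + C content was 43.5% in the higher calls, 52.4% in the lower calls and 47.8% in the miRNAs not called. With the G + C slope of each library as a covariate, 5 miRNAs were higher and 16 lower, and 17 of the 36 calls were kept. With the miR-190a and miR-590 set as a covariate, 1 was higher and 9 lower, and 8 of the 36 calls were kept. No called miRNA changed sign in any of the fits made. With the planned loess correction for G + C, 18 were higher and 19 lower, and 25 of the 36 calls were kept. Combined with a replicate block, that correction kept 23 of the 36. Beyond these fits the part of base composition in the calls was not tested. Scaling by total counts in place of TMM moved the median of all miRNAs from -0.01 to 0.10 and gave 22 higher and 15 lower. When 1 library was left out, 12 of the 36 calls stood whichever it was, 3 of them higher and 9 lower. The counts fell to 6 higher and 11 lower without HIF1α/HIF2α-KO replicate 1 and to 4 and 11 without replicate 3. They fell to 4 higher and 10 lower without normoxic control replicate 2, and likewise without replicate 3.

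**Figure D2:**
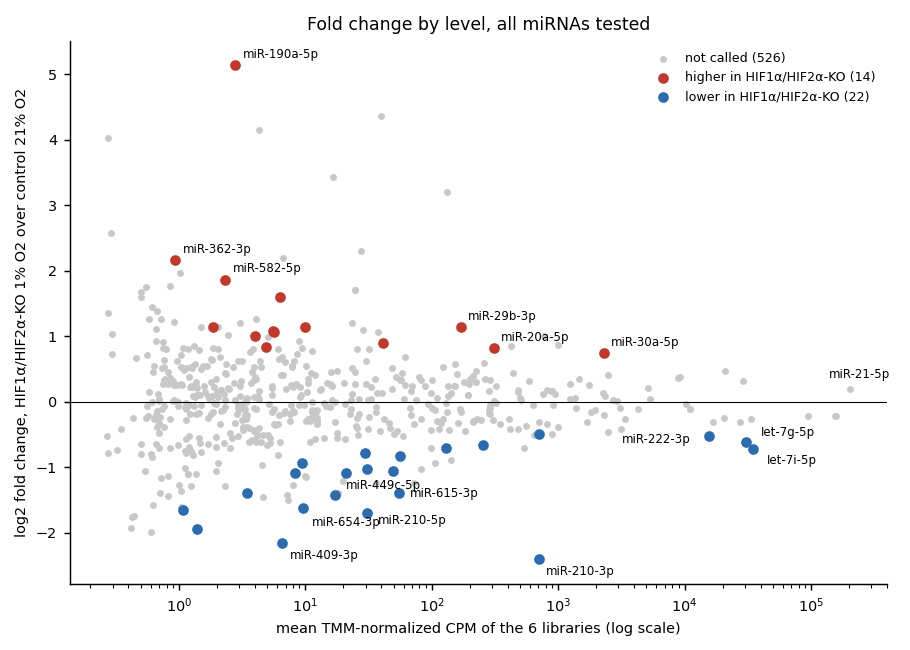
Log2 fold change of HIF1α/HIF2α-KO cells at 1% O2 over control cells at 21% O2 (y axis) against the mean TMM-normalized CPM of the 6 libraries (x axis, log scale), 1 point per miRNA tested. The 14 higher calls are red and the 22 lower calls blue, and miR-210-3p at -2.40 is the lowest call.

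miR-210-3p was the miRNA with the lowest fold change among the calls and was well below its normoxic level. Its level was 181, 146 and 348 CPM in the HIF1α/HIF2α-KO libraries and 1018, 1308 and 1237 CPM in the normoxic control libraries. The highest knock-out value was thus under all control values. The means were 225 ± 108 and 1188 ± 151 CPM (SD, n = 3), a 5.28-fold lower level (log2 fold change -2.40, SE 0.32, adjusted p = 0.00122). By mean level miR-210-3p ranked 41 of the tested miRNAs in the control cells and 90 in the HIF1α/HIF2α-KO cells. The exact two-sided permutation test over the libraries gave p = 0.1, the smallest value that 3 against 3 allows. With the G + C slope as a covariate the log2 fold change was -1.99 (adjusted p = 0.00179), and with the miR-190a and miR-590 set it was -1.87 (adjusted p = 0.0106).

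miR-210-5p, the other arm of the hairpin and the less abundant one, was lower as well. Its level was 16.9, 10.7 and 16.1 CPM in HIF1α/HIF2α-KO cells and 38.5, 46.7 and 57.0 CPM in normoxic control cells, again without overlap. The log2 fold change was -1.70 (SE 0.30, adjusted p = 0.00713). It was -1.40 (adjusted p = 0.0178) with the G + C slope as a covariate, and the call was lost with the miR-190a and miR-590 set (-1.27, adjusted p = 0.0678). Both arms are rich in G + C, with 63.6% and 72.7%.

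The other groups place these levels. The mean of miR-210-3p was 1550 ± 404 CPM in HIF2α-KO cells, 1188 ± 151 in normoxic control cells, 1042 ± 109 in control cells at 1% O2, 309 ± 110 without HIF1α alone and 225 ± 108 in HIF1α/HIF2α-KO cells (SD, n = 3 each). In that order, neighbouring groups overlapped at every step but one, the step from hypoxic control cells, at 935 to 1153 CPM, to HIF1α-KO cells, at 240.5 to 436 CPM. Hypoxic control cells did not lie above normoxic control cells, with a log2 difference of -0.19 (adjusted p = 0.841). miR-210-3p, best known as a HIF target, thus gave no check of the 1% O2 label of these control libraries, and all values against them rest on that label. The separate comparisons with normoxia, which share the normoxic libraries, gave -1.94 for HIF1α-KO cells (adjusted p = 0.00479) and 0.38 for HIF2α-KO cells (adjusted p = 0.583). miR-210-5p was low in the same 2 groups, whose values overlapped, with 14.6 ± 3.39 CPM in HIF1α/HIF2α-KO cells and 12.5 ± 4.35 in cells without HIF1α alone, against 47.4 ± 9.25 to 49.9 ± 6.35 in the other 3.

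**Figure D3:**
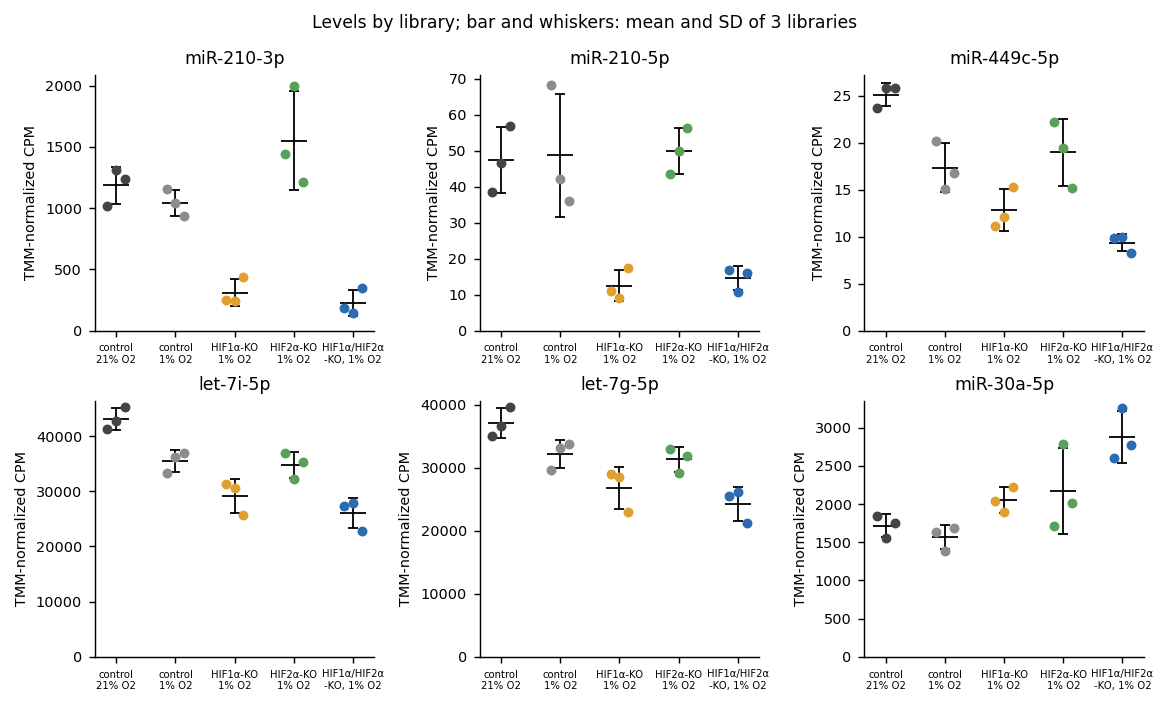
TMM-normalized CPM (y axes, from 0) of 6 miRNAs in the 15 libraries by group, 1 point per library, with the mean and SD of 3 libraries. miR-210-3p in HIF1α/HIF2α-KO cells lies between 146 and 348 CPM, under the 1018 to 1308 of the normoxic controls and beside the HIF1α-KO libraries, and miR-30a-5p lies above its normoxic range.

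The let-7 family, whose guide strands repress growth genes such as RAS and HMGA2 and are themselves restrained by LIN28, held the most abundant of the lower calls. let-7i-5p was at 27405, 27856 and 22871 CPM in HIF1α/HIF2α-KO cells and at 41271, 42643 and 45263 CPM in normoxic control cells. Its log2 fold change was -0.73 (SE 0.11, adjusted p = 0.0022), and in CPM it fell by 17015, more than any other called miRNA. let-7g-5p was at 25542, 26120 and 21204 CPM against 35097, 36642 and 39730.1 CPM, with a log2 fold change of -0.61 (SE 0.12, adjusted p = 0.00713). In both, the groups lay well apart and replicate 3 of the knock-out cells was the lowest. let-7i-3p, the other arm of the let-7i hairpin, was at 5.29, 3.33 and 7.30 CPM against 11.2, 10.1 and 12.4 CPM (log2 fold change -1.08, adjusted p = 0.0409).

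The other 7 guide strands of the family were not called. Of 9 let-7 guide strands tested, 2 were lower and none was higher, against 2.49% higher and 3.91% lower of all miRNAs tested. The median log2 fold change was -0.27, against -0.01 over all miRNAs, with 6 members below 0 and 3 above. The groups did not overlap in 7 of the 9, against 39% of all miRNAs, and differences between members were not tested. let-7a-5p, the most abundant, was at 79837 to 99484 CPM against 98902 to 105054 CPM (log2 fold change -0.22, adjusted p = 0.415), so its groups overlapped. With the G + C correction let-7a-5p was called lower (-0.68, adjusted p = 0.0326). let-7b-5p, let-7c-5p and let-7d-5p had values of -0.32, -0.27 and -0.42 (adjusted p = 0.253, 0.317 and 0.178). let-7f-5p had a value of 0.47 (adjusted p = 0.429). Summed by seed, the family gave -0.30 (adjusted p = 0.257). The members differ by few bases, and how reads that fit several of them were counted is not given in the sources used here.

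let-7i-5p and let-7g-5p have 40.9% and 36.4% G + C and lie in the quartile of lowest G + C, whose median was 0.31. With the G + C slope as a covariate their values were -0.83 (adjusted p = 0.00141) and -0.75 (adjusted p = 0.00278), and with the miR-190a and miR-590 set -0.87 (adjusted p = 0.00352) and -0.79 (adjusted p = 0.00906). Under quantile normalization, the method the study names, they were -0.24 (adjusted p = 0.205) and -0.31 (adjusted p = 0.125), and neither was called. let-7g-5p also lost its call without normoxic control replicate 3 (adjusted p = 0.0557). The call of let-7i-3p was lost without any 1 of 5 libraries, HIF1α/HIF2α-KO replicate 3 being the exception, with an adjusted p of up to 0.129, and with either covariate (adjusted p = 0.182 and 0.369).

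The 4 most abundant miRNAs did not pass the test. miR-21-5p, the dominant miRNA of glioma cells and an inhibitor of several tumour suppressors, was at 247007, 203244 and 205320.0 CPM against 194917, 166277 and 209527 CPM (log2 fold change 0.20, adjusted p = 0.327). It took 21.5% to 25.5% of the counts of the HIF1α/HIF2α-KO libraries and 16.6% to 20% of those of the normoxic controls. miR-100-5p and miR-99a-5p, which differ by 1 base and had nearly the same counts, were both at -0.22 (adjusted p = 0.297 and 0.296). miR-222-3p, a repressor of the cell-cycle inhibitor CDKN1B, was lower, at 12767, 14493 and 11065 CPM against 19232, 18419.7 and 17609 CPM (log2 fold change -0.53, SE 0.14, adjusted p = 0.0409). That call was lost without any 1 library other than HIF1α/HIF2α-KO replicate 2 (adjusted p of up to 0.199) and with either covariate (adjusted p = 0.193 and 0.352).

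miR-449c-5p and miR-449a, relatives of the p53-linked miR-34 miRNAs that lie in an intron of CDC20B on chromosome 5, were both lower. miR-449c-5p was at 9.82, 10.0 and 8.28 CPM against 23.6, 25.8 and 25.8 CPM, a tight separation with a log2 fold change of -1.42 (SE 0.19, adjusted p = 0.00122). miR-449a was at 1.70, 1.67 and 2.30 CPM against 6.01, 5.17 and 3.80 CPM (log2 fold change -1.40, SE 0.28, adjusted p = 0.00881). The knock-out values lay under all control values in both. miR-34a-5p, which shares the seed of miR-449a and is far more abundant, had a value of 0.17 (adjusted p = 0.667), and the family summed by that seed had 0.14 (adjusted p = 0.701). miR-34a-3p, the minor arm of the miR-34a hairpin, was higher, at 2.58, 2.27 and 2.87 CPM against 0.98, 1.54 and 0.97 CPM (log2 fold change 1.15, adjusted p = 0.0409), but not without any 1 library other than normoxic control replicate 2 (adjusted p of up to 0.129) and not with either covariate (adjusted p = 0.177 and 0.217). miR-449c-5p kept its call with the G + C slope (-1.13, adjusted p = 0.00273) and with the miR-190a and miR-590 set (-1.02, adjusted p = 0.016). miR-449a kept its call with the slope (-1.44, adjusted p = 0.0333) and lost it with the set (-1.44, adjusted p = 0.071). The 8 tested members of the p53-linked list had a median of 0.27. None was called, against 2.49% higher and 3.91% lower of all miRNAs tested.

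miR-615-3p, from an intron of the HOXC cluster on chromosome 12, was at 37.0, 22 and 32.8 CPM in HIF1α/HIF2α-KO cells and at 85.5, 81.1 and 74.8 CPM in normoxic control cells. The log2 fold change was -1.39 (SE 0.26, adjusted p = 0.00713), and all knock-out values were at or under 37.0 CPM. miR-615-5p had -1.40 (adjusted p = 0.0503). miR-615-3p and miR-222-3p were the 2 lower calls among 10 tested members of the list of miR-221, miR-222 and HOX-cluster miRNAs. None was higher, against 2.49% higher and 3.91% lower of all miRNAs tested, and the median of the list was -0.12. miR-10b-5p and miR-10a-5p, the HOXD and HOXB neighbours, had 0.02 (adjusted p = 0.952) and 0.41 (adjusted p = 0.364). miR-615-3p has 63.6% G + C and kept its call with the G + C slope (-1.22, adjusted p = 0.0325) but not with the miR-190a and miR-590 set (-1.30, adjusted p = 0.0678).

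miR-105-5p and miR-767-5p, cancer-germline miRNAs from introns of GABRA3 on the X chromosome that are expressed in tumours with demethylated promoters, were both lower. miR-105-5p was at 44.8, 37.9 and 39.8 CPM against 70.7, 73.6 and 73.0 CPM (log2 fold change -0.83, SE 0.16, adjusted p = 0.00713). miR-767-5p, which represses TET enzymes, was at 34.1, 37.8 and 23.8 CPM against 64.5, 68.3 and 65.7 CPM (log2 fold change -1.05, SE 0.20, adjusted p = 0.00713). The control values of each lay close together and above all knock-out values. With the G + C slope both kept their calls (adjusted p = 0.0178 for miR-105-5p and 0.0333 for miR-767-5p). With the miR-190a and miR-590 set miR-105-5p kept its call (-0.92, adjusted p = 0.0418) and miR-767-5p lost it (-0.73, adjusted p = 0.0993). The minor arms had values of -0.52 for miR-105-3p (adjusted p = 0.313) and -0.44 for miR-767-3p (adjusted p = 0.274). In HIF1α-KO cells against normoxia miR-105-5p was at -1.04 (adjusted p = 0.00471) and miR-767-5p at -0.87 (adjusted p = 0.0332).

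The 14q32 cluster is a long imprinted array of miRNAs expressed from the maternal chromosome. It was weakly expressed in these cells, with 24 of 74 members tested and 37 of 74 at 3 counts or fewer in all 6 libraries. Among those tested, 5 were lower and none was higher, against 3.91% and 2.49% of all miRNAs, and the median log2 fold change was -0.95. Their summed level was 41.2 to 55.5 CPM in HIF1α/HIF2α-KO cells and 72.2 to 131 CPM in normoxic control cells. Members reached the test through the groups where they were high, so these counts describe only those that did.

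The 14q32 calls were low in count as well as in fold. miR-381-3p, the most abundant, was at 19.1, 19.9 and 21.6 CPM against 27.1, 47.4 and 49.2 CPM (log2 fold change -1.03, adjusted p = 0.0331). miR-654-3p was at 3.02, 6.06 and 5.0 CPM against 8.61, 20.7 and 14.2 CPM (-1.63, adjusted p = 0.0119), and miR-654-5p at 0.441, 0.379 and 0.902 CPM against 1.87, 2.55 and 2.19 CPM (-1.95, adjusted p = 0.0382). Normoxic control replicate 1 was the lowest of its group for miR-381-3p, both arms of miR-654 and miR-409-3p, but not for miR-382-3p. miR-409-3p was at 1.83, 3.41 and 1.97 CPM against 6.09, 16 and 10.2 CPM (-2.16, SE 0.48, adjusted p = 0.0175). miR-382-3p, with 6 to 9 counts against 20 to 26, had -1.66 (SE 0.33, adjusted p = 0.00829). Of these, miR-382-3p stood without any 1 library, and miR-382-3p, miR-654-3p and miR-381-3p stood with the G + C slope. With the miR-190a and miR-590 set miR-382-3p and miR-381-3p stood (adjusted p = 0.0288 and 0.0482), and miR-654-3p, miR-409-3p and miR-654-5p were lost (adjusted p = 0.0663, 0.071 and 0.166). miR-654-3p was lost without HIF1α/HIF2α-KO replicate 1 or 3 or control replicate 2 (adjusted p of up to 0.106), and miR-409-3p without those or control replicate 3 (up to 0.111). miR-381-3p was kept only without control replicate 1, and miR-654-5p was lost without any 1 of the 6 (adjusted p of up to 0.151 and 0.132). miR-369-3p and miR-376a-3p were the 2 members above 0, with 1.03 (adjusted p = 0.558) and 1.35 (adjusted p = 0.413).

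Of the higher calls, the arms of the miR-582 hairpin, from an intron of PDE4D on chromosome 5, stood without any 1 library. miR-582-5p was at 2.96, 3.41 and 4.67 CPM in HIF1α/HIF2α-KO cells and at 1.06, 0.848 and 1.10 CPM in normoxic control cells (log2 fold change 1.86, SE 0.34, adjusted p = 0.00713). miR-582-3p was at 7.87, 8.49 and 12.1 CPM against 3.09, 3.16 and 3.16 CPM (log2 fold change 1.59, SE 0.30, adjusted p = 0.00713). The groups were apart in both arms, which remained rare. In HIF1α-KO cells they were at 1.56 (adjusted p = 0.0284) and 1.51 (adjusted p = 0.0164) over normoxia. Their G + C content is 34.8% and 40.9%, and the calls were kept with the G + C slope (adjusted p = 0.0333 and 0.0462) and lost with the miR-190a and miR-590 set (adjusted p = 0.0993 and 0.118).

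miR-30a-5p, an abundant repressor of autophagy and mesenchymal genes, was the higher call with the largest level. It was at 2597, 3257 and 2775 CPM against 1846, 1559 and 1748 CPM, with a log2 fold change of 0.74 (SE 0.16, adjusted p = 0.0174). miR-30c-2-3p, the passenger arm of a hairpin that shares the same host transcript on chromosome 6 and reported to act on HIF2α mRNA, was at 50.6, 61.1 and 49.2 CPM against 30.4, 27.5 and 28.3 CPM (log2 fold change 0.90, SE 0.16, adjusted p = 0.00713). The groups were apart in both. miR-29b-3p, which represses collagens and DNA methyltransferases, was at 235, 187 and 276 CPM against 116, 82.1 and 119.8 CPM (log2 fold change 1.13, adjusted p = 0.0245). Of 8 tested guide strands of the miR-29 and miR-30 families, miR-29b-3p and miR-30a-5p were called higher, none was lower, against 2.49% higher and 3.91% lower of all miRNAs tested, and the median was 0.47. miR-30c-5p and miR-30d-5p, of the same family as miR-30a-5p, had 0.09 (adjusted p = 0.736) and -0.12 (adjusted p = 0.558).

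miR-30a-5p kept its call with both covariates (0.78, adjusted p = 0.0333, and 0.89, adjusted p = 0.046) and lost it without HIF1α/HIF2α-KO replicate 3 or control replicate 2 or 3 (adjusted p of up to 0.111). miR-30c-2-3p stood without any 1 library, kept its call with the G + C slope (0.70, adjusted p = 0.0325) and lost its call with the miR-190a and miR-590 set (0.68, adjusted p = 0.0884). miR-29b-3p lost its call with both covariates (0.67, adjusted p = 0.112, and 0.61, adjusted p = 0.272) and without any 1 library other than HIF1α/HIF2α-KO replicate 2 (adjusted p of up to 0.113).

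The miR-17-92 cluster and its paralogs, growth-promoting miRNAs driven by MYC, held 3 higher calls and no lower call among 18 tested members, against 2.49% higher and 3.91% lower of all miRNAs tested, with a median of 0.14. miR-20a-5p was at 362, 418 and 404 CPM against 246, 194 and 229 CPM (log2 fold change 0.82, SE 0.21, adjusted p = 0.0305). miR-18a-5p was at 9.38, 4.77 and 8.85 CPM against 4.47, 3.08 and 3.42 CPM (log2 fold change 1.07, SE 0.25, adjusted p = 0.0245). miR-18b-5p, which differs from it by 1 base, had nearly the same counts and the same fold change, so the pair is best read as 1 call. miR-92a-3p, the most abundant member, had a value of -0.03 (adjusted p = 0.895), and the family summed by the seed of miR-17-5p and miR-20a-5p had 0.07 (adjusted p = 0.795). All 3 calls were lost with either covariate (adjusted p from 0.107 to 0.205). miR-20a-5p was lost without any 1 of the 6 libraries (adjusted p of up to 0.149), and the miR-18 pair without HIF1α/HIF2α-KO replicate 1 or 3 or control replicate 2 or 3 (adjusted p of up to 0.113).

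The list of miRNAs reported to act on HIF α mRNAs or on their degradation overlaps these families. Of its 10 tested members, miR-18a-5p, miR-20a-5p and miR-30c-2-3p were higher and none was lower, against 2.49% higher and 3.91% lower of all miRNAs tested, with a median of 0.31. miR-155-5p, which represses HIF1α, and miR-424-5p, which represses the ubiquitin ligase scaffold CUL2, had 0.02 (adjusted p = 0.966) and 0.26 (adjusted p = 0.493). miR-424-3p, the other arm of the miR-424 hairpin, was lower, at 94.3, 87.6 and 116 CPM against 166, 176 and 145 CPM (log2 fold change -0.71, adjusted p = 0.028), a call lost without any 1 of the 6 libraries (adjusted p of up to 0.135) and with either covariate (adjusted p = 0.141 and 0.205).

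miR-190a-5p had the highest fold change, but from almost no counts. It had 67, 102 and 54 counts in the HIF1α/HIF2α-KO libraries and 1, 2 and 3 counts in the normoxic controls, all at or under the limit of 3. The ratio of the pooled counts, scaled by library, was 36.7 with an exact 95% binomial interval of 16.6 to 101. It is 1 of the pair of AU-rich miRNAs that mark the split of the libraries described above and has 22.7% G + C. It ranged from 0.18 to 3.18 CPM among the HIF1α-KO libraries and from 0.313 to 4.65 CPM among the HIF2α-KO libraries. The log2 fold change fell from 5.13 (adjusted p = 0.0245) to 2.47 (adjusted p = 0.0102) with the G + C slope as a covariate. With the miR-190a and miR-590 set, which its own level helps to define, it was 1.79 (adjusted p = 0.214) and no longer called. The call was lost without HIF1α/HIF2α-KO replicate 2 or any 1 normoxic control library (adjusted p of up to 0.111).

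A further 5 miRNAs had a log2 fold change over 3 and were not called, namely miR-1-3p, miR-590-3p, miR-374a-3p, miR-374a-5p and miR-1252-5p, chosen here after their values were seen. Their adjusted p ran from 0.0503 to 0.132, and the G + C content was 19.0% to 27.3% in the 4 with a sequence. miR-362-3p, of the miR-532 cluster in CLCN5, was called higher with 16, 19 and 27 counts against 2, 3 and 9. The pooled ratio was 4.38 with an interval of 2.42 to 8.46. miR-362-3p was 1 of 14 tested members of its cluster to be called, against 2.49% higher and 3.91% lower of all miRNAs tested. In the cluster, 13 of the 14 lay above 0 with a median of 0.35, while 50.5% of all miRNAs tested lay below 0. The call of miR-362-3p was lost without HIF1α/HIF2α-KO replicate 3 or control replicate 1 or 2 (adjusted p of up to 0.111) and with either covariate (adjusted p = 0.153 and 0.205).

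The remaining calls were scattered over unrelated hairpins. The higher ones were miR-129-2-3p (log2 fold change 1.13), miR-605-5p (1.00) and miR-5010-3p (0.84), at 3.79 to 18.8 CPM in HIF1α/HIF2α-KO cells. miR-129-2-3p was lost without any 1 library other than HIF1α/HIF2α-KO replicate 2 (adjusted p of up to 0.207). miR-605-5p was lost without HIF1α/HIF2α-KO replicate 1 or 3 or control replicate 2 or 3 (up to 0.128), and miR-5010-3p without any 1 of the 6 (up to 0.17). All 3 were lost with either covariate. miR-129-1-3p, almost identical to miR-129-2-3p, had 1.12 (adjusted p = 0.0514), so that call rests on which side of the threshold a shared value fell. The lower ones were miR-2277-5p (-1.08), miR-191-3p (-0.94), miR-92b-5p (-0.78), miR-671-3p (-0.66) and miR-455-3p (-0.50), the last at 594, 558 and 609.6 CPM against 774, 835 and 875 CPM. All 5 of these have 52.4% G + C or more, none was kept with either covariate, and each was lost without at least 5 of the 6 libraries in turn.

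**Figure D4:**
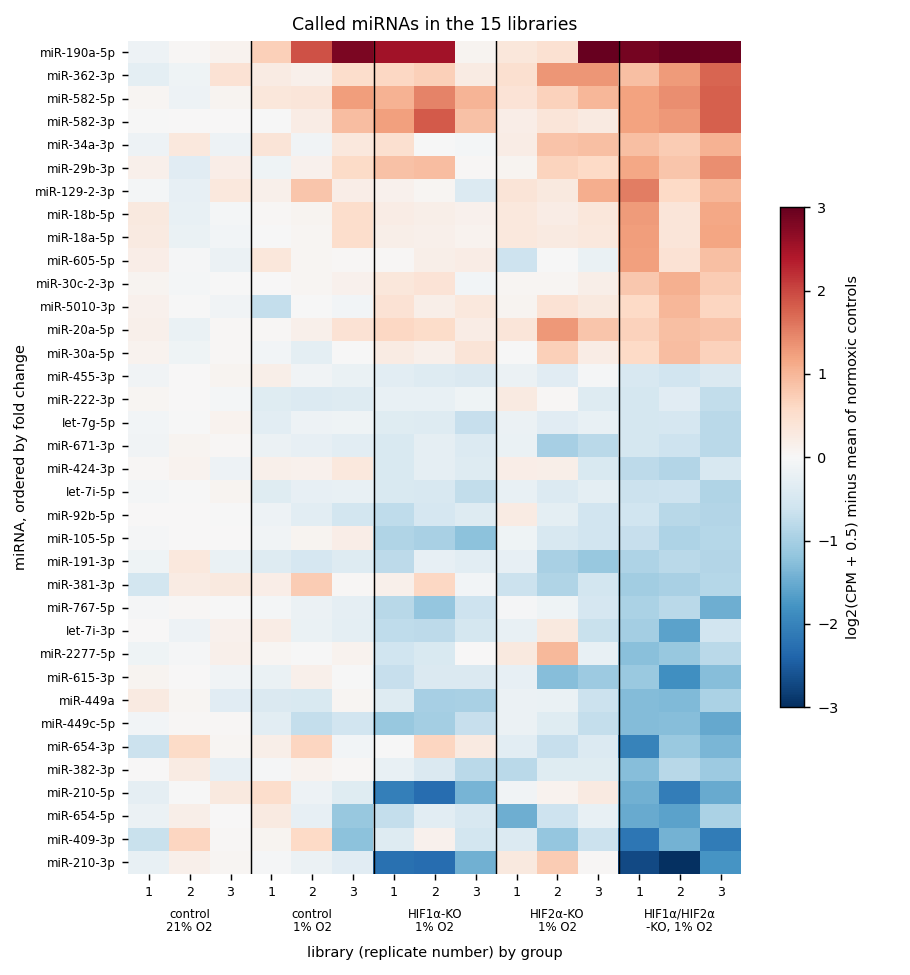
Level of the 36 called miRNAs (rows, ordered by fold change) in the 15 libraries (columns, by group and replicate number) as log2(CPM + 0.5) minus the mean of the normoxic controls, colours limited to ±3. miR-210-3p and miR-210-5p are low in the HIF1α-KO and HIF1α/HIF2α-KO libraries, and miR-190a-5p is high in some libraries of each other hypoxic group as well as in all HIF1α/HIF2α-KO libraries.

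The arms of a hairpin mostly moved the same way. Both arms were called for 4 of 22 hairpins that had a call and both arms tested, namely miR-210, let-7i, miR-582 and miR-654, always in the same direction. The signs of the arms were equal in 19 of the 22, against 68.3% of all 142 hairpins with both arms tested. The exceptions were let-7g, miR-18a and miR-424. The 22 were picked for a call in these same data, so they are not like the 142, and the difference was not tested. Summed over shared seeds, 10 of 424 families were higher (2.36%) and 22 lower (5.19%). Most of them were a single called miRNA. miR-125a-5p and miR-125b-5p, of the seed CCCUGAG, were lower as a family (log2 fold change -0.34, SE 0.09, adjusted p = 0.0381) although each alone was not. miR-101-3p (1.00, adjusted p = 0.0489) and miR-1-3p (3.43, adjusted p = 0.045) were higher families, and the miR-30c-2-3p and miR-30c-1-3p pair had 0.64 (adjusted p = 0.0238). Tested as a single miRNA, miR-1-3p had the same log2 fold change and was not called (adjusted p = 0.0503). miR-101-3p and miR-1-3p are low in G + C, with 33.3% and 27.3%. With the miR-190a and miR-590 set as a covariate, 0 families were higher.

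Of 18 tested miRNAs reported to respond to low oxygen, other than miR-210, none was called in either direction, against 2.49% higher and 3.91% lower of all miRNAs tested. In 7 of the 18 the groups did not overlap, against 39% of all miRNAs tested. Of the 18, 11 lay above 0 and 7 below, and the median was 0.07. miR-192-5p, at 0.46 (adjusted p = 0.053), came closest. Among 13 glioblastoma oncomiRs, miR-30a-5p was higher and miR-222-3p lower, with a median of 0.20. Among 8 tumour suppressors of glioblastoma none was called and the median was -0.07, miR-7-5p, the most abundant, being at 0.38 (adjusted p = 0.601). None was called of 7 members of the miR-15/16 family (median -0.02), of 5 of the miR-99/100 and miR-125 families (median -0.22) or of 8 of the miR-548 family (median 0.27).

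The distance from normoxia was then compared with that of control cells under hypoxia. In control cells the change from 21% to 1% O2 called none of the 562 miRNAs (0% higher and 0% lower in edgeR's test), with 35 at an unadjusted p under 0.05. HIF1α/HIF2α-KO cells differed from hypoxic control cells in 7 higher (1.25%) and 26 lower (4.63%) miRNAs. This is the test of the difference between the cultures in their distance from normoxia, in which the normoxic libraries cancel out. Of the 36 calls against normoxia, 19 also passed it. Both comparisons use the same HIF1α/HIF2α-KO libraries, so that overlap is partly built in and gives no separate support. miR-210-3p was at -2.21 (adjusted p = 0.00402), miR-105-5p at -0.89 (adjusted p = 0.00651), miR-615-3p at -1.38 and miR-654-3p at -1.83 (both adjusted p = 0.00672), and miR-30a-5p at 0.87 (adjusted p = 0.00672). Of the calls that did not pass this test, miR-222-3p was at -0.14 (adjusted p = 0.619) and miR-190a-5p at 1.30 (adjusted p = 0.403).

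The knock-outs of a single subunit were compared with the same normoxic libraries. In HIF1α-KO cells 4 miRNAs were higher (0.712%) and 9 lower (1.6%), and among these the values of let-7i-5p and miR-449c-5p were -0.56 and -0.97 (both adjusted p = 0.0164). In HIF2α-KO cells none was higher or lower (0% each), with 85 at an unadjusted p under 0.05, and let-7i-5p was at -0.31 (adjusted p = 0.271). The 14q32 member miR-654-3p was at 0.24 in HIF1α-KO cells (adjusted p = 0.721) and at -0.57 in HIF2α-KO cells (adjusted p = 0.442), beside -1.63 in HIF1α/HIF2α-KO cells.

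Some rare miRNAs exceeded the limit of 3 counts in 1 group only. In all 3 HIF1α/HIF2α-KO libraries and in no normoxic control library, miR-190a-5p, miR-1252-5p, miR-627-5p, miR-548ar-3p and miR-3942-5p exceeded 3 counts, with 9, 5 and 8 counts of miR-1252-5p against 0, 0 and 1. miR-3942-5p, with 4, 5 and 7 counts against 3, 2 and 3, only just crossed the limit. The reverse held for miR-1266-5p, miR-1909-3p and miR-4781-3p, none of them with more than 9 counts. miR-4781-3p had 2, 3 and 2 counts in HIF1α/HIF2α-KO libraries against 9, 4 and 5. How many miRNAs would cross the limit by counting error alone was not tested.

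Of the miRNAs that mark other cells, none was called singly, against 2.49% higher and 3.91% lower of all miRNAs tested. miR-21-5p, miR-10b-5p, miR-221-3p and miR-222-3p, which mark glioblastoma lines, were present at a summed 210694 to 278705 CPM. The endothelial miR-126 arms summed to 6.64 to 15.7 CPM in HIF1α/HIF2α-KO cells and 18 to 38.7 CPM in normoxic controls. Within the other groups this sum varied widely. It ran from 4.28 to 50.8 CPM in hypoxic control cells, 4.01 to 33.4 CPM in HIF1α-KO cells and 4.28 to 35.7 CPM in HIF2α-KO cells. Blood cell markers, 3 of 8 of which were at 3 counts or fewer in all 6 libraries, among them miR-486-5p and miR-223-3p, summed to 5.49 to 9.32 against 12.2 to 19.1 CPM. Muscle and liver markers, chiefly miR-1-3p, summed to 20.8 to 46.4 against 1.95 to 8.44 CPM, with miR-206 at 3 counts or fewer. miR-1-3p itself was at 18.6 to 41.8 against 0.975 to 5.41 CPM. Neural markers, chiefly miR-9-5p, summed to 6957 to 7881 against 5942 to 7289 CPM. Epithelial markers of the miR-200 and miR-183 families summed to 319.8 to 443 against 301 to 382 CPM, with none called among 9 tested. In 7 of the 9 the groups did not overlap, against 39% of all miRNAs tested. The median log2 fold change of the 9 was -1.15. Of them, 6 lay below 0, among them miR-429 at -1.60 (adjusted p = 0.248). The miR-183 cluster lay above 0, with miR-182-5p, the most abundant, at 0.40 (adjusted p = 0.152). The part of the endothelial, blood and muscle markers in the calls was not tested.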

How the data were processed

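Small RNA libraries of 15 samples of U87-MG cells were used, 3 in each of 5 groups. RNA was extracted with Trizol and a miRNeasy kit, and libraries were made commercially. The authors deposited raw read counts per mature miRNA, 1 file per sample. The submitters' processing notes name HISAT2, StringTie and DESeq2. Versions, genome build, adapter trimming and the treatment of reads that fit several miRNAs are not given in the sources used here. The study names quantile normalization with limma for the values it used, which is an alternative here because the deposited values are counts.

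Counts were tested with edgeR 4.0.16 (glmQLFit and glmQLFTest, R 4.3.3) in 1 fit to all 15 libraries, 1 mean per group, with TMM scaling and filterByExpr, which kept 562 of 1707 miRNAs. p-values were adjusted by the Benjamini-Hochberg method over all miRNAs tested, and called means an adjusted p under 0.05. SE is the log2 fold change divided by the square root of the F statistic. CPM values are TMM-normalized. Seeds came from RefSeq sequences, matched by name for 1545 of 1707 miRNAs (90.5%). Host genes came from GENCODE v29. G + C content was known for 513 of 562 miRNAs tested (91.3%). The script was tested on simulated counts.

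Named miRNAs are the MIR210 arms, the 10 highest and 10 lowest calls without overlap, the 5 calls with the largest difference in CPM, the 5 most abundant miRNAs, and the called or top members of each list. The members and lists were chosen with earlier results of these data known. No pair of replicates agreed within counting noise.

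Alternatives were DESeq2 1.42.0, limma 3.58.1 with log2(CPM + 1), DESeq2 size factors, total counts, no filter, a minimum of 10 counts, the 6 libraries alone, a replicate block, a G + C correction by loess (span 0.75), library sets by miR-126 level, leaving out miR-21-5p, and leaving out each replicate. Covariates for the G + C slope and the miR-190a and miR-590 set were added after the data were seen.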

Additional observations from a re-analysis of the deposited data

Results flagged for a closer look

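For 19 named miRNAs the HIF1α/HIF2α-KO cells and the hypoxic control cells differed in their distance from the normoxic control cells, by edgeR's test of that difference (log2 HIF1α/HIF2α-KO minus hypoxic control, 3 libraries each). The arms of miR-210 differed by -2.21 (miR-210-3p, adjusted p = 0.00402) and -1.74 (miR-210-5p, adjusted p = 0.00605). The 14q32 miRNAs differed by -2.06 (miR-409-3p), -1.83 (miR-654-3p), -1.69 (miR-382-3p) and -1.35 (miR-381-3p). miR-615-3p differed by -1.38, miR-2277-5p by -1.13, miR-449a by -1.09, miR-424-3p by -0.903 and miR-105-5p by -0.889. The value was -0.884 for both miR-449c-5p and miR-767-5p, -0.467 for miR-455-3p and -0.446 for let-7i-5p. Those above the hypoxic controls were miR-582-3p and miR-5010-3p, both at 1.10, miR-30a-5p at 0.875 and miR-30c-2-3p at 0.833. The highest adjusted p among the 19 was 0.041, for miR-582-3p. All 19 were also calls against normoxia. Only calls and named miRNAs were searched, and the uncalled ones among them were miR-21-5p, miR-100-5p, miR-99a-5p and let-7a-5p. That all 19 were calls was thus largely fixed by the search. Over all 562 miRNAs tested, 7 were higher and 26 lower in this test. Both comparisons also rest on the same HIF1α/HIF2α-KO libraries, so the overlap is partly built in. The G + C slope was above 0 in 1 hypoxic control library and below 0 in the other 2, and the part of this difference in the values was not tested.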

How the results depend on the processing

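No called miRNA changed sign under any alternative. The 14 higher and 22 lower calls became 24 and 28 with DESeq2's Wald test, 22 and 15 with total counts, 44 and 34 without a filter, and 41 and 36 with the 6 libraries alone. They became 5 and 16 with the G + C slope and 1 and 9 with the miR-190a and miR-590 set as a covariate, both chosen after the data were seen. With the other settings both counts stayed within 1.5 times. Without 1 replicate, 4 to 12 were higher and 10 to 16 lower, in fits that pool the spread of the remaining pair of libraries with the other groups. Seed families, 10 higher and 22 lower, became 22 higher with DESeq2, 25 without a filter, 31 with the 6 libraries alone, 16 with the G + C correction, 2 with the G + C slope, and 0 with the miR-190a and miR-590 set (23 at an unadjusted p under 0.05). Lower families became 12 with total counts and 14 with that set. Without 1 replicate, 2 to 8 families were higher and 5 to 13 lower. miR-210-5p was at -1.27 with the miR-190a and miR-590 set and no longer called. The cause of these changes was not tested.

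The replicate numbers did not pair the libraries. The deviations of same-numbered libraries correlated at -0.041, 0.13 and -0.171 over the 562 miRNAs. With a replicate block 10 miRNAs were higher and 16 lower, and 6 and 13 seed families. miR-210-3p kept its call (adjusted p = 0.00406). Of the 36 calls, 17 lay under 10 CPM, where counts are low.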
